A study of Mus musculus with 614 samples.

Results

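The cells described here are 89 single pre-dendritic cells (pre-DC) from mouse bone marrow that lack surface Ly6C and differ in surface SiglecH. They were chosen by label alone: their library numbers run from RMB963 to RMB1058, and 19 are labelled SiglecH+Ly6C- and 70 SiglecH-Ly6C-. The whole series holds 614 cells in 12 sort gates, with 1 full-length library for each cell, prepared on a microfluidic chip. All 89 cells came from untreated adult C57BL/6J mice of 7 to 10 weeks. Both gates shared one phenotype: negative for lineage markers, MHC class II, CD172α and B220, and positive for CD11c and Flt3. The proteins on which the gates differ are therefore SiglecH alone, and class II protein was a negative criterion in both. Cells of the gates lay interspersed: SiglecH+ cells had numbers from RMB966 to RMB1034, and 53 of the SiglecH- cells had numbers up to the latter. A further 51 SiglecH+Ly6C- cells have library numbers from RMB867 to RMB962 and served as the same gate in another run of numbers. Whether a run of numbers is 1 chip or 1 day is not given in the labels.

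Dendritic cells divide into plasmacytoid cells (pDC), the main producers of type I interferon, and conventional cells (cDC), which present antigen to T cells on MHC class II. The split is governed by opposed helix-loop-helix factors: Tcf4 (E2-2) is an E protein needed for pDC identity, while Id2 binds E proteins and keeps them off DNA, and cDC1 need Id2 and Batf3. Runx2 acts with Tcf4 in pDC and supports their exit from the marrow. Cd74, the invariant chain, fills the groove of class II molecules and guides them to endosomes. Pre-DC are marrow cells committed to dendritic fate, and SiglecH is a lectin typical of pDC and of part of the pre-DC.

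No label names an animal or a pool, so each gate counts as 1 sample, and no p-value or standard error was computed. Every SD below is over cells and measures their spread, not the spread between animals. Levels are in TPM, which scale transcript abundance by transcript length and to one common total per cell, and the difference for a gene is the mean over cells of log2(TPM + 1) in SiglecH+ minus that in SiglecH- cells. This scale understates the change of low genes. A gene was kept when 20% or more of either gate's cells had it at 1 TPM or above, and a difference of 2 or more on the log2 scale counted as past the size rule. The depth of a cell is unknown in TPM. Genes at 1 TPM or more per cell had a median of 4812 (3532 to 6148) in SiglecH+ and 4177 (2886 to 6018) in SiglecH- cells, and the median difference over all genes kept was 0.26.

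Siglech, the transcript of the sorted protein, was under 10 TPM in 2 SiglecH+ cells and at 100 TPM or more in 2 SiglecH- cells. Siglech was at 1.34, 933.5 and 4865 TPM (lowest, median, highest) in SiglecH+ cells and at 0, 0.67 and 1667 TPM in SiglecH- cells. At 1 TPM or more it was found in 44.3% of SiglecH- cells (32.4 to 56.7%, exact 95% interval), but at 100 TPM or more in only 2.86% (0.348 to 9.94%). SiglecH+ cell 69 had Siglech at 1.34 TPM, Tcf4 at 0.74 TPM, Id2 at 3592 TPM and H2-Ab1 at 3309 TPM, the profile seen in most SiglecH- cells. SiglecH- cell 37 was its mirror image, with Siglech at 1667 TPM, Tcf4 at 779 TPM, Ly6d at 8862 TPM, Id2 at 1.22 TPM and H2-Ab1 at 15.3 TPM. It also held haemoglobin transcripts, with Hbb-bt at 1436 TPM and Hba-a2 at 999.7 TPM. SiglecH+ cell 3 had Siglech at 7.74 TPM beside Tcf4 at 854.6 TPM. SiglecH- cell 48 had Siglech at 389 TPM and Tcf4 at 295 TPM together with Id2 at 2869 TPM and H2-Ab1 at 4948 TPM. Between these thresholds, SiglecH- cells 20 and 1 had Siglech at 69.4 and 15.4 TPM. Counts of genes and list medians are given with these 4 cells and, where it matters, without them.

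Other sort proteins gave a mixed check. Although both gates were sorted as Ly6C-, 57.9% of SiglecH+ cells and 18.6% of SiglecH- cells had Ly6c2 at 1 TPM or more. For Sirpa, which encodes CD172α, the shares were 63.2% and 5.71%. For Itgax, which encodes the positive sort protein CD11c, they were 42.1% and 28.6%, with a median of 0 TPM in both gates. Flt3 averaged 5.73 ± 3.05 and 3.83 ± 3.0 on the log2 scale (SD; n = 19 and n = 70 cells), and Ptprc 7.66 ± 2.53 and 7.65 ± 2.65. Summed markers of other cell types had a median of 0 TPM in both gates for 4 of 6 lists, all but the T and NK cell and the plasma cell lists. In SiglecH+ cells 8 of 10 T and NK cell genes were at 0, as were 9 of 10 neutrophil genes, 9 of 10 erythroid and platelet genes and all 6 basophil and mast cell genes. The summed level of the erythroid and platelet genes ranged from 0 to 7.4 TPM in SiglecH+ and from 0 to 3710 TPM in SiglecH- cells, the highest being cell 37. Summed neutrophil genes reached 0.61 TPM and 664.2 TPM, and summed T and NK cell genes 14.2 TPM and 1065 TPM, with 4 of the 10 T and NK cell genes at 0 in every SiglecH- cell. Summed plasma cell genes had medians of 10.0 and 1.01 TPM and reached 918.7 and 1546 TPM; 2 of them were kept, with a median difference of 1.26. Of the B lineage genes, Pax5, Vpreb1, Vpreb3, Igll1 and Pou2af1 were at 0 in every one of the 89 cells.

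Genes of the pDC program were higher in SiglecH+ cells and genes of antigen presentation lower. Of 9334 genes kept, 345 (3.7%) were higher by 2 or more in SiglecH+ cells and 89 (0.954%) were lower by 2 or more. The split depends on how cells are averaged: with the log2 of the mean TPM, which lets a few bright cells weigh more, 612 were higher and 708 lower. Without the 4 cells above, 370 were higher and 127 lower. The 10 genes just inside the size rule had differences of 2.0 to 2.04 and -2.07 to -2.0, and the 10 just outside 1.98 to 2.0 and -2.0 to -1.96. Apart from the sort marker Siglech, the largest positive differences were those of Ly6d (8.02), a surface protein of early lymphoid cells and pDC, Cd7 (7.32) and Tcf4 (6.09). The largest negative ones were those of Id2 (-7.47), Plbd1 (-6.76), which encodes a phospholipase B-like protein, and H2-Aa (-6.74), the class II alpha chain. No gene separated the gates completely: for every gene the ranges over cells overlapped.

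**Figure D1:**
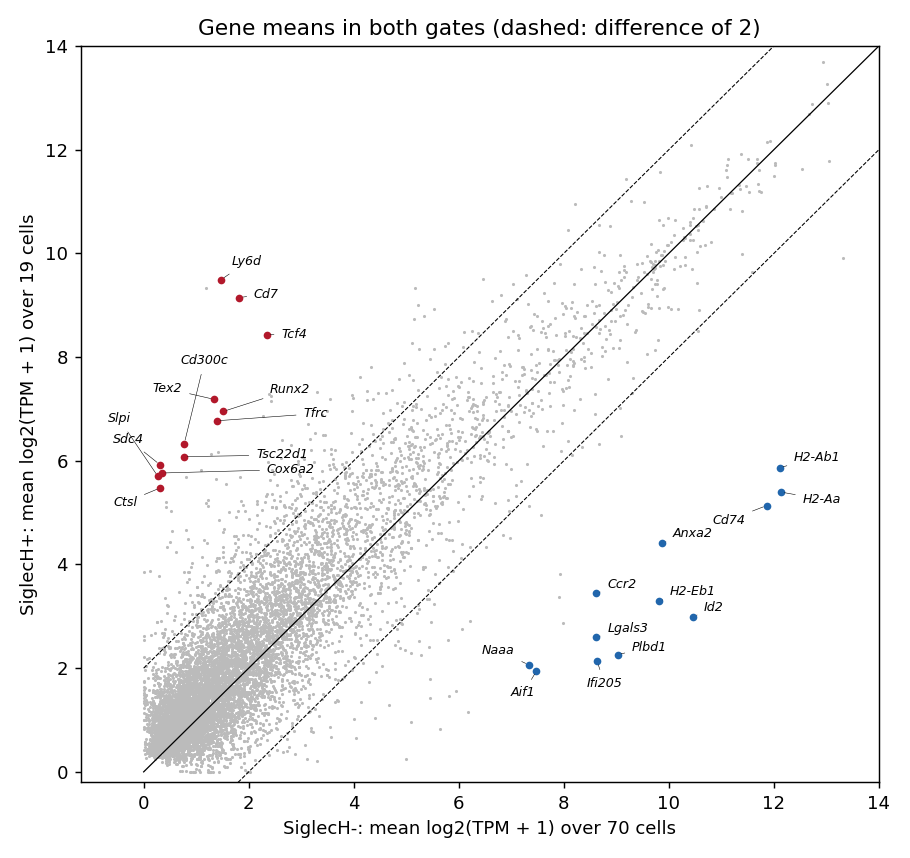
Mean log2(TPM + 1) of each of the 9334 genes kept, over the 70 SiglecH- cells (x axis) and the 19 SiglecH+ cells (y axis); the solid line marks equal means, the dashed lines a difference of 2, and coloured points the 12 largest differences each way without sort markers (the grey point beside Ly6d is Siglech). Ly6d, Cd7 and Tcf4 stand farthest above the diagonal, Id2 and the class II genes farthest below it.

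The 12 genes with the largest positive differences reached 100 TPM in 47.4 to 89.5% of SiglecH+ cells and in 1.43 to 12.9% of SiglecH- cells. The 12 with the largest negative differences reached 100 TPM in 67.1 to 95.7% of SiglecH- cells and in 5.26 to 31.6% of SiglecH+ cells. These genes were chosen for their size, so the shares describe them and support nothing further.

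Among the E and Id proteins the opposed pair stood at the ends. Tcf4 (GRCm38 chr18:69343356-69689079, plus strand) was at 0.74, 686.8 and 2464 TPM (lowest, median, highest) in SiglecH+ cells and at 0, 1.94 and 779 TPM in SiglecH- cells. Only SiglecH- cell 37 reached the SiglecH+ median, and only SiglecH+ cell 69 lay below the SiglecH- median. Its mean was 8.43 ± 2.72 against 2.34 ± 2.47 on the log2 scale (SD; n = 19 and n = 70 cells). Id2 (chr12:25093799-25097140, minus strand) was at 0, 4.39 and 3592 TPM in SiglecH+ cells and at 0, 2804 and 6511 TPM in SiglecH- cells. At 100 TPM or more it was found in 2 of 19 SiglecH+ and 63 of 70 SiglecH- cells. Low Id2 was common all the same in this run: 84.2% of its SiglecH+ cells had 1 TPM or more, beside 39.2% of those of the other run. Tcf12 (HEB), a second E protein, averaged 4.55 ± 2.90 against 1.72 ± 2.44 and was past the size rule. Tcf3, which encodes E2A, averaged 1.0 ± 1.69 and 0.50 ± 1.63, a difference of 0.50 that was not past it. Id3, another Id protein, reached 1 TPM in 26.3% of SiglecH+ cells and was listed at 0 in all 70 SiglecH- cells, with a difference of 1.51. For counting error only, 0 of 70 cells allows a share of up to 4.29% (3 counts of the total). Id1 and Id4 did not pass the filter, and Id4 was at 0 throughout.

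**Figure D2:**
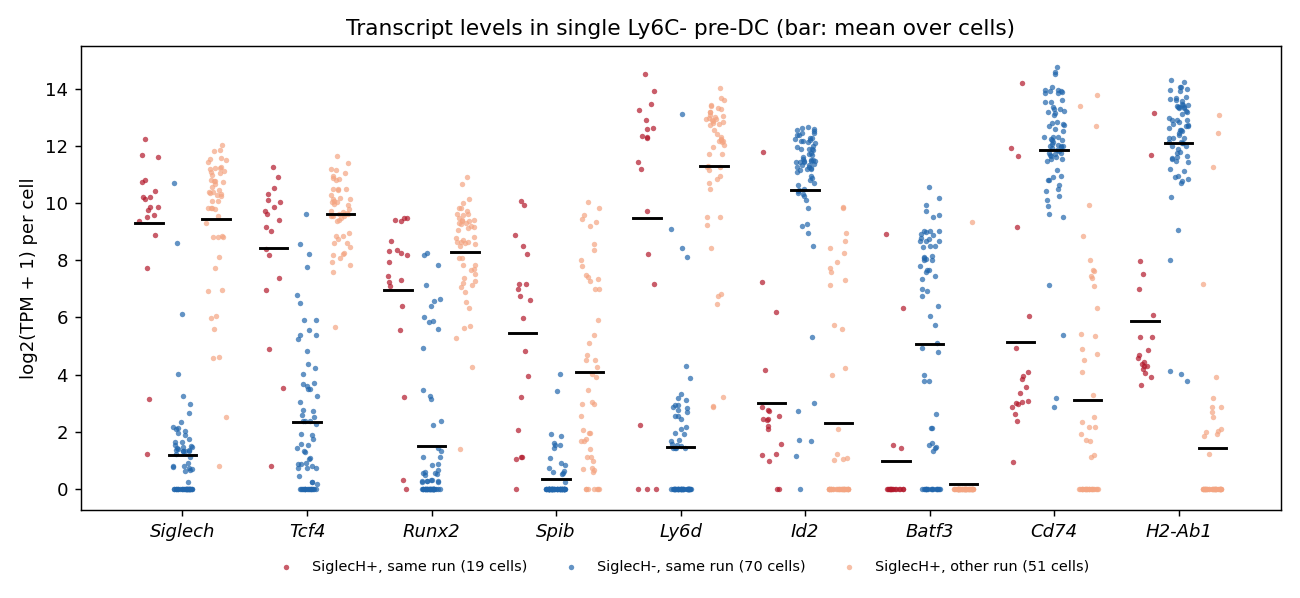
Levels of 9 transcripts on a log2(TPM + 1) scale in each SiglecH+ cell (19, red) and SiglecH- cell (70, blue) of the run and in the 51 SiglecH+ cells of the other run (orange); points are cells and bars are means over cells. Tcf4, Runx2 and Ly6d are high in most cells of both SiglecH+ sets, and Id2, Cd74 and H2-Ab1 in most SiglecH- cells, with exceptions in each gate. Batf3 is higher on average in SiglecH- cells but ranges there from undetected to high.

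Transcription factors of the pDC program were mostly higher in SiglecH+ cells. All 7 on the list were kept, and 5 (Tcf4, Runx2, Spib, Bcl11a and Zeb2) were higher by 2 or more, beside 3.7% of all genes; the list median was 4.02. Runx2 (chr17:44495987-44814797, minus strand) was at 0, 242.8 and 724 TPM in SiglecH+ and at 0, 0.195 and 305.9 TPM in SiglecH- cells, and 2 of 70 SiglecH- cells reached the SiglecH+ median. Spib, an Ets factor of pDC and B cells, was at 0, 96.4 and 1083 TPM in SiglecH+ cells and never above 15.2 TPM in SiglecH- cells. No SiglecH- cell reached its SiglecH+ median, although SiglecH+ cells with little or no Spib were also found. Bcl11a, which supports Tcf4 expression, averaged 7.32 ± 1.94 against 3.30 ± 2.93 on the log2 scale. Zeb2, a repressor required for pDC, averaged 5.18 ± 3.20 against 1.19 ± 2.36. The 2 remaining factors did not follow. Irf8, needed by both pDC and cDC1, was high in both gates at medians of 1234 and 745 TPM, with a difference of 1.36. Irf7, the interferon regulator, averaged 1.98 ± 3.45 and 2.09 ± 3.23. Without the 4 cells above, the list median was 4.34.

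Surface and effector genes of pDC included high members in SiglecH+ cells. Of 17 listed genes 13 were kept, and 8 were higher by 2 or more beside 3.7% of all genes. The list median was 3.84, but 1.87 over all members without the filter. Ly6d was at 0, 5044 and 23429 TPM in SiglecH+ cells and had a median of 0 TPM in SiglecH- cells, in which only cell 37 reached the SiglecH+ median. It was also uneven within the gate, with 3 of the 19 SiglecH+ cells at 0 TPM and a SD of 5.10. Cd7, a lymphoid surface protein, was at 1.45, 1110 and 3175 TPM in SiglecH+ cells, and its median in SiglecH- cells was 0 TPM, although 9 of 70 had 100 TPM or more. Cd300c, an activating receptor whose family has close copies, averaged 6.33 ± 3.45 against 0.77 ± 2.39. Cox6a2, a subunit of cytochrome c oxidase typical of pDC, reached 100 TPM in 10 of 19 SiglecH+ cells and 1 of 70 SiglecH- cells. Bst2, a pDC surface gene, averaged 7.28 ± 3.12 against 2.39 ± 3.39 on the log2 scale. Other members of the list differed less. Lag3, Pacsin1 and Fcrla had differences of 0.37, 1.0 and 1.28, and Pacsin1 reached 1 TPM in 26.3% of SiglecH+ and in 0 of 70 SiglecH- cells.

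The other genes with large positive differences have varied roles. Tfrc, the transferrin receptor, averaged 6.77 ± 3.31 against 1.39 ± 2.92, and 7 of 70 SiglecH- cells reached the SiglecH+ median of 182 TPM. Sdc4, a heparan sulfate proteoglycan, and Slpi, a secreted protease inhibitor, had differences of 5.61 and 5.42, each with 1 SiglecH- cell at 100 TPM or more. Tex2, a lipid transfer protein of the endoplasmic reticulum, had a difference of 5.84 and Tsc22d1, a transcriptional regulator, one of 5.31. The lysosomal protease Ctsl was at 0, 109 and 961.8 TPM in SiglecH+ cells, and its median in SiglecH- cells was 0 TPM. With Ctsb (difference 3.78) and Ctsd (2.77), 3 of the 10 lysosomal genes were higher by 2 or more, beside 3.7% of all genes, while Cst3, the cathepsin inhibitor cystatin C, was lower by 3.41. Cst3 nevertheless had a median of 1393 TPM in SiglecH+ cells, beside 14126 TPM in SiglecH- cells.

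Most class II presentation genes were lower in SiglecH+ cells. All 10 were kept, 6 were lower by 2 or more beside 0.954% of all genes, and the list median was -3.49 (-3.78 without the 4 cells above, -2.23 with a pseudocount of 10). H2-Ab1, the class II beta chain (chr17:34257689-34269419, plus strand), was at 11.5, 24.5 and 9186 TPM in SiglecH+ cells and at 12.6, 5998 and 20275.5 TPM in SiglecH- cells. Only 3 of 70 SiglecH- cells were under 100 TPM, and 2 of 19 SiglecH+ cells were at 1000 TPM or more. H2-Aa (chr17:34282744-34287823, minus strand) was at 2.61, 11.5 and 15009.9 TPM and at 6.15, 6822 and 30076 TPM. Cd74 (chr18:60803848-60812652, plus strand) was at 0.91, 10.9 and 19104.5 TPM and at 6.36, 4410 and 27979 TPM. In each of these genes only 1 SiglecH+ cell reached the SiglecH- median. H2-Eb1, the beta chain of the second class II molecule, averaged 3.30 ± 3.24 against 9.81 ± 2.92 on the log2 scale.

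Not all genes of the class II region shared this difference. H2-DMa, one chain of the H2-M molecule that loads peptide onto class II, averaged 8.70 ± 2.73 and 8.90 ± 2.71, with medians of 771.9 and 942.3 TPM. Its partner chain H2-DMb1 averaged 3.82 ± 3.33 and 7.93 ± 3.22, a difference of -4.11, whereas H2-DMb2 differed by -0.66. H2-DMb1 and H2-DMb2 are near-identical copies, so the division of reads between them is uncertain. H2-Oa and H2-Ob, the chains of the H2-O molecule that restrains peptide loading, had differences of -0.61 and 0.03. Ciita, the coactivator that switches on class II genes, had a difference of -2.86: it reached 1 TPM in 5.26% of SiglecH+ cells and 58.6% of SiglecH- cells and was never above 8.89 TPM in SiglecH+ cells.

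The bases before the start sites are shown for class II genes, of which 6 were past the size rule and 4 were not. Class II promoters carry a Y box, a reversed CCAAT element bound by NF-Y, next to the X box bound by RFX. RefSeq promoter windows on GRCm38.p6, from 250 bases before to 50 after a start, were matched for 7 of the 10 class II genes and gave 8 windows. The letters TGATTGG were searched on both strands and found in 6 of the windows, beside 7.82% of all 32851 windows, and the core ATTGG contained in them in 37.4% of all windows. The stretches of 97 bases below run 5′ to 3′ on the strand of the gene, with the 7 letters in capitals. They cover 3 genes that were lower in SiglecH+ cells and 1 that was not.
H2-Aa: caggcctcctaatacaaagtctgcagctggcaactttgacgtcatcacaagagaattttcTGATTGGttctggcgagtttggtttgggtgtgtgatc
H2-Eb1: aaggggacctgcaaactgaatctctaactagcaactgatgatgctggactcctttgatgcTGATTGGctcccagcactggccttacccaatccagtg
H2-DMb1: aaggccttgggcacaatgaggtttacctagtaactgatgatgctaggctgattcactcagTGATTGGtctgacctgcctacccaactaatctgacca
H2-Ob: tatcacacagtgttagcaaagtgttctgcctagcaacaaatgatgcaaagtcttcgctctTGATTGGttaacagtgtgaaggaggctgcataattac
On GRCm38.p6 they lie at chr17:34287837-34287933 (minus strand), chr17:34305746-34305842, chr17:34153068-34153164 and chr17:34238786-34238882 (plus strand), before the start sites that RefSeq gives. The capitals start 50, 61, 63 and 59 bases before the start site. The same letters were found before H2-Oa and H2-DMb2, which were not past the size rule, and not in either window of H2-DMa. A match of letters is a description and no measure of binding.

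**Figure D3:**
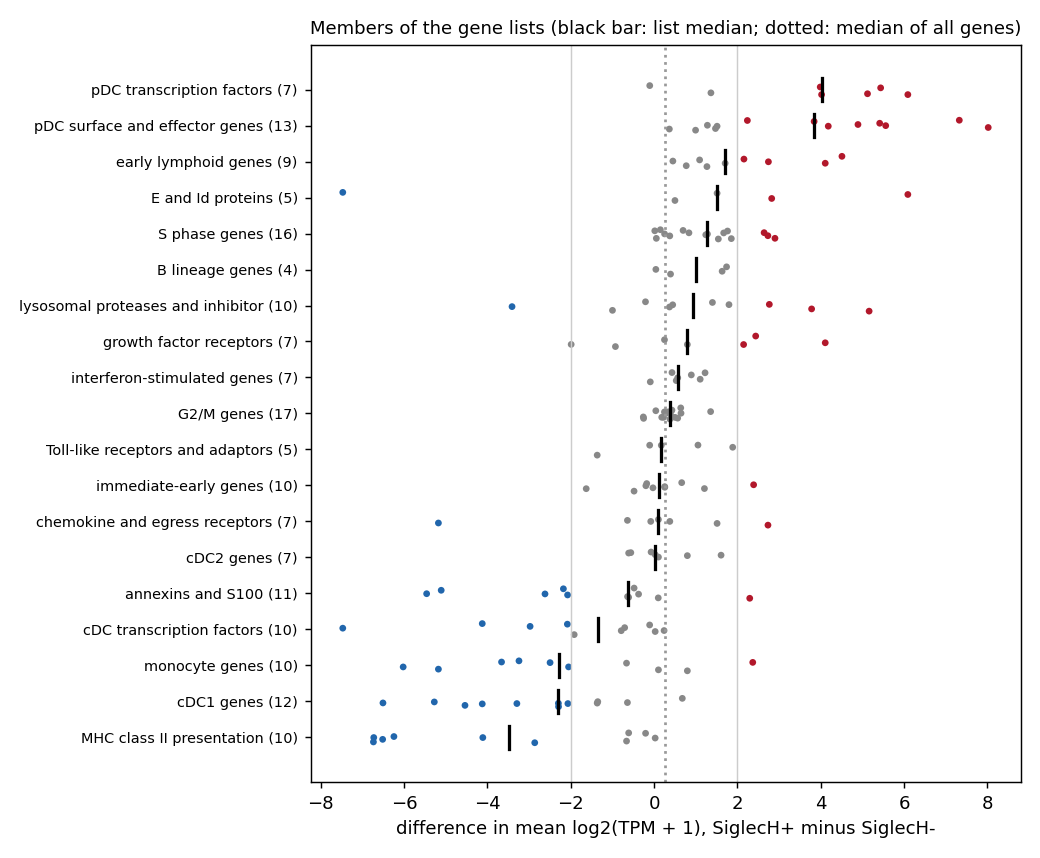
Difference in mean log2(TPM + 1), SiglecH+ minus SiglecH-, for each kept member of 19 gene lists (number kept in brackets); black bars are list medians, the dotted line the median of all genes kept, grey lines a difference of 2 either way. The pDC lists lie to the right with medians of 4.02 and 3.84, and the class II and cDC1 lists to the left with medians of -3.49 and -2.29.

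Transcription factors of the cDC program were divided. Of 12 listed, 10 were kept and 4 were lower by 2 or more in SiglecH+ cells, beside 0.954% of all genes: Id2, Batf3, Spi1 and Rbpj, with none higher by 2 or more. The list median of -1.35 was -0.75 without the filter. Batf3 (chr1:191097847-191108945, plus strand) was at 0, 0 and 484.6 TPM in SiglecH+ cells and at 0, 94.3 and 1512 TPM in SiglecH- cells. Thus 1 of 19 SiglecH+ cells and 35 of 70 SiglecH- cells had 100 TPM or more, and the SiglecH+ cell was cell 69. Spi1, which encodes PU.1, averaged 1.03 ± 2.43 against 4.0 ± 3.04. Rbpj, the DNA-binding partner of Notch, averaged 0.78 ± 1.29 against 2.86 ± 2.99, and the receptor Notch2 4.13 ± 1.86 against 6.05 ± 1.11, a difference of -1.92. The cDC factor Zbtb46 was low in both gates at 1.06 ± 1.61 and 1.77 ± 2.37, as were Bcl6, Mycl and Relb with differences of -0.79, -0.11 and 0.24. Klf4, a factor of the cDC2 branch, averaged 3.89 ± 3.25 and 3.86 ± 3.28. Irf4 and Nfil3 did not pass the filter.

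Genes of the cDC1 branch included many lower members. Of 14 cDC1 genes 12 were kept and 8 were lower by 2 or more beside 0.954% of all genes, with a median of -2.29. Of 12 cDC2 genes 7 were kept and 0 were past the size rule in either direction, with a median of 0.03; this difference between the lists was not tested. Ifi205, an interferon-inducible protein of a family with close copies, was at 0, 1.33 and 638.3 TPM in SiglecH+ cells and at 0, 1139 and 4495 TPM in SiglecH- cells. Naaa, a lysosomal amidase of cDC1, had a difference of -5.27 and Cd24a, a surface glycoprotein, one of -4.54. Xcr1, the chemokine receptor of mature cDC1, averaged 0.30 ± 0.46 and 0.94 ± 1.70 and was low in both gates, and Havcr2, which encodes TIM-3, differed by 0.68. Among cDC2 genes Clec10a, a lectin, had the highest difference (1.61) and S100a4 the lowest (-0.61).

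Myeloid genes outside the DC lists included lower members. Of 12 monocyte genes 10 were kept, 6 were lower and 1 was higher by 2 or more, beside 0.954% and 3.7% of all genes. Lgals3 (galectin-3) had a difference of -6.02, Ccr2, the receptor for marrow exit of monocytes, one of -5.18, and Lyz2 (lysozyme) one of -3.66. Ccr2 was at 0.55, 4.13 and 262.1 TPM in SiglecH+ cells and at 0.46, 589 and 2841 TPM in SiglecH- cells, and no SiglecH+ cell reached the SiglecH- median. The exception Ly86, the partner of a Toll-like receptor homologue, was higher by 2.37. Csf1r, the receptor for M-CSF, was low in both gates with a difference of 0.80. Aif1, an actin-binding protein of myeloid cells, had a median of 0 TPM in SiglecH+ and 606 TPM in SiglecH- cells. Of 11 annexin and S100 genes kept, the 5 lower by 2 or more were Anxa2, Anxa1, Anxa6, Anxa5 and S100a10, the binding partner of annexin A2. S100a13 was higher by 2.29.

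Early lymphoid genes included higher members. Of 12 listed 9 were kept, and 4, Blnk (4.51), Il7r (4.11), Ighm (2.74) and Foxp1 (2.16), were higher by 2 or more beside 3.7% of all genes. Ighm, the mu heavy chain gene, was at 731, 1886 and 5228 TPM in SiglecH+ cells and at 0.93, 491.5 and 4979 TPM in SiglecH- cells, so it was abundant in both gates. Blnk, an adaptor of the B cell receptor, was at 0, 20.7 and 1614 TPM in SiglecH+ cells and at most 38.7 TPM in SiglecH- cells. Il7r, the IL-7 receptor chain, reached 1 TPM in 73.7% and 10.0% of the cells. Of the B lineage genes 4 of 11 were kept with 0 past the size rule; Blk and Cd79b had differences of 1.74 and 1.63 and Ebf1 one of 0.04. The summed B lineage genes had medians of 11.2 and 1.12 TPM. Whether they have a part in the lymphoid differences was not tested. The highest early lymphoid means per cell were nevertheless found in the SiglecH- gate: cells 39 and 66 had 5.72 and 5.59 on the log2 scale, above the SiglecH+ maximum of 4.88. Both cells had Siglech at 0 TPM, Id2 at 0 and 2.22 TPM and H2-Ab1 at 12.6 and 16.3 TPM. Their means over the T and NK cell genes were 1.27 and 1.26 and over the neutrophil genes 0.94 and 0.89, and the part of these cells in the differences was not tested.

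Receptors for growth and migration signals were read against 3.7% of all genes higher and 0.954% lower by 2 or more. Il7r, Csf2rb and Csf2rb2 were the 3 of 7 kept growth factor receptors higher by 2 or more. Of 7 chemokine and egress receptors kept, 1 was higher and 1 lower. Csf2rb and Csf2rb2 encode near-identical beta chains of the IL-3 receptor family, so their separate values (2.44 and 2.15) are uncertain. Kit, the stem cell factor receptor, had a difference of -1.99, just short of the size rule. Cxcr4, which holds cells in the marrow, was higher by 2.73, with medians of 18 and 0 TPM, and Ccr9, a homing receptor of pDC, differed by 1.51. Toll-like receptors and their adaptors showed 0 members past the size rule among 5 kept. Myd88 had the highest difference (1.89) and Tlr3 the lowest (-1.37), and neither Tlr7 nor Tlr9, the nucleic acid sensors of pDC, passed the filter. No interferon-stimulated gene of 7 kept was past it, the highest being Mx1 (1.22). Among the 10 immediate-early genes kept, Egr1 was higher by 2.39 and Junb had the lowest difference (-1.63).

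Proliferation genes were listed by phase. All 16 S phase genes had a difference above 0, as had 15 of 17 G2/M genes and 6229 of all 9334 genes kept. The S phase median was 1.26, and 3 genes (Mcm4, Mcm3 and Mcm6, subunits of the replicative helicase) were higher by 2 or more, beside 3.7% of all genes. None of the 17 G2/M genes was past the size rule, and their median was 0.38, beside 0.26 for all genes. The difference between the lists was not tested. The mean over the S phase list per cell was 0.89, 4.52 and 7.96 (lowest, median, highest) in SiglecH+ cells and 0.35, 2.51 and 7.84 in SiglecH- cells. Both gates thus spanned nearly the same range, and 19 of 70 SiglecH- cells reached the SiglecH+ median. More genes per cell were found in SiglecH+ cells (above), and the part of this in the S phase values was not tested.

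Within each gate the programs were taken cell by cell. The mean log2(TPM + 1) over the 7 pDC factors was 2.57, 6.79 and 8.19 in SiglecH+ cells and 0.92, 2.57 and 6.17 in SiglecH- cells. Of the SiglecH+ cells 5 fell inside the SiglecH- range, and no SiglecH- cell reached the SiglecH+ median. The upper end of that range was set by cell 37 alone, and the next highest SiglecH- value was 5.45 in cell 48. The mean over the 10 class II genes was 1.78, 3.31 and 9.03 in SiglecH+ cells and 1.89, 7.59 and 9.63 in SiglecH- cells. SiglecH+ cell 10 held transcripts of both programs: Siglech was at 739 TPM, Tcf4 at 167.8 TPM and Ly6d at 295 TPM, with H2-Ab1 at 9186 TPM and Cd74 at 19104.5 TPM but Id2 and Runx2 at 0 TPM. It held the highest class II mean of its gate, with 3747 genes at 1 TPM or more. SiglecH+ cell 4 had the highest pDC factor mean, with Tcf4 at 2464 TPM and Spib at 1083 TPM, and also H2-Aa at 4940 TPM and Cd74 at 3248 TPM. No doublet caller was run, and whether cells 4, 10 and 48 are 2 cells captured together was not tested.

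**Figure D4:**
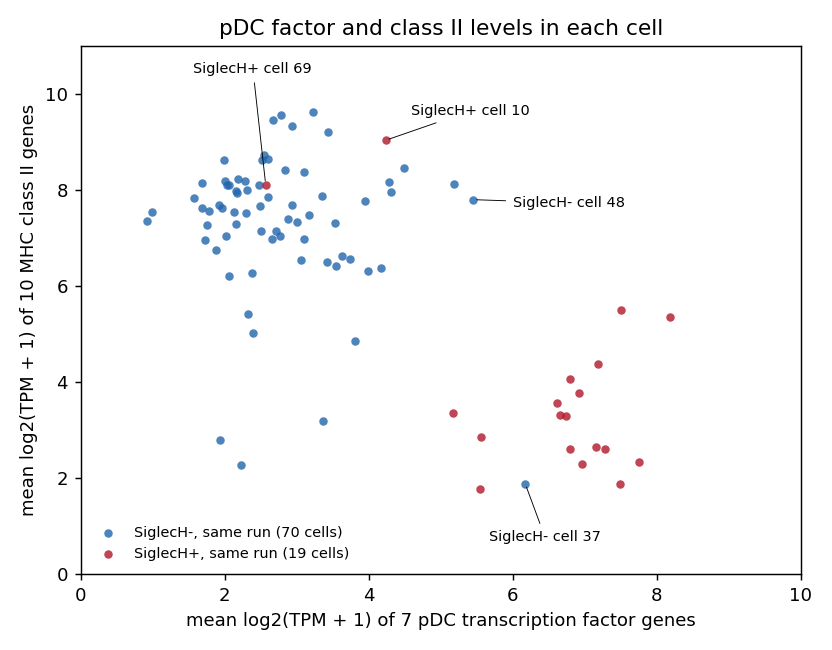
Each point is 1 cell of the run (19 SiglecH+ in red, 70 SiglecH- in blue); the x axis is the mean log2(TPM + 1) over 7 pDC transcription factor genes, the y axis that over 10 class II genes. Most SiglecH- cells lie at the upper left and most SiglecH+ cells at the lower right, and SiglecH+ cell 69 and SiglecH- cell 37 lie with the opposite gate. SiglecH+ cell 10 lies at 4.23 and 9.03, within the SiglecH- range on both axes. SiglecH- cell 48 lies at 5.45 and 7.80, to the right of most cells of its gate.

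Opposed factors were seen together in some cells of both gates. Tcf4 and Id2 both reached 10 TPM in 3 of 19 SiglecH+ cells (15.8%, exact 95% interval 3.38 to 39.6%) and in 19 of 70 SiglecH- cells (27.1%, 17.2 to 39.1%). At 100 TPM or more the counts were 1 of 19 and 3 of 70. Runx2 and Batf3 both reached 10 TPM in 0 of 19 SiglecH+ cells and in 7 of 70 SiglecH- cells (10.0%, 4.12 to 19.5%). For the 0 of 19, 3 counts of the total allow a share of up to 15.8%, and the exact 95% upper limit was 17.6%. Intervals and limits cover counting error only. Tcf4 at the lower threshold of 1 TPM was found in 58.6% of SiglecH- cells, at a median of 1.94 TPM.

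Class II transcripts at low level marked the SiglecH+ cells of this run but less so those of the other. H2-Ab1 reached 10 TPM in 19 of 19 SiglecH+ cells of this run and in 9.80% of the 51 in the other run, where its median was 0 TPM. At 100 TPM or more the shares were 26.3% (9.15 to 51.2%) and 7.84% (2.18 to 18.9%). These intervals overlap, but they cover counting error only and are no test between the runs. H2-Aa at 1 TPM or more was found in 100% and 35.3%, and at 100 TPM or more in 21.1% and 13.7%. Cd74 at 100 TPM or more was found in 21.1% and 21.6%, although at 1 TPM or more the shares were 94.7% and 54.9%. For Id2 the shares were 84.2% and 39.2% at 1 TPM, but 21.1% and 29.4% at 10 TPM. All 12 of the named lower genes had a larger share of SiglecH+ cells at 1 TPM or more in this run than in the other. No count over all genes kept stands beside this one, so it describes these 12 genes only. Genes at 1 TPM or more per SiglecH+ cell had medians of 4812 in this run and 5031 in the other. The 12 named lower genes were chosen as higher in the 70 SiglecH- cells that share the run, where their medians were 389 to 6822 TPM. The SiglecH+ cells of the other run shared its library numbers with SiglecH+Ly6C+ cells. The part of the run in the low levels was not tested.

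**Figure D5:**
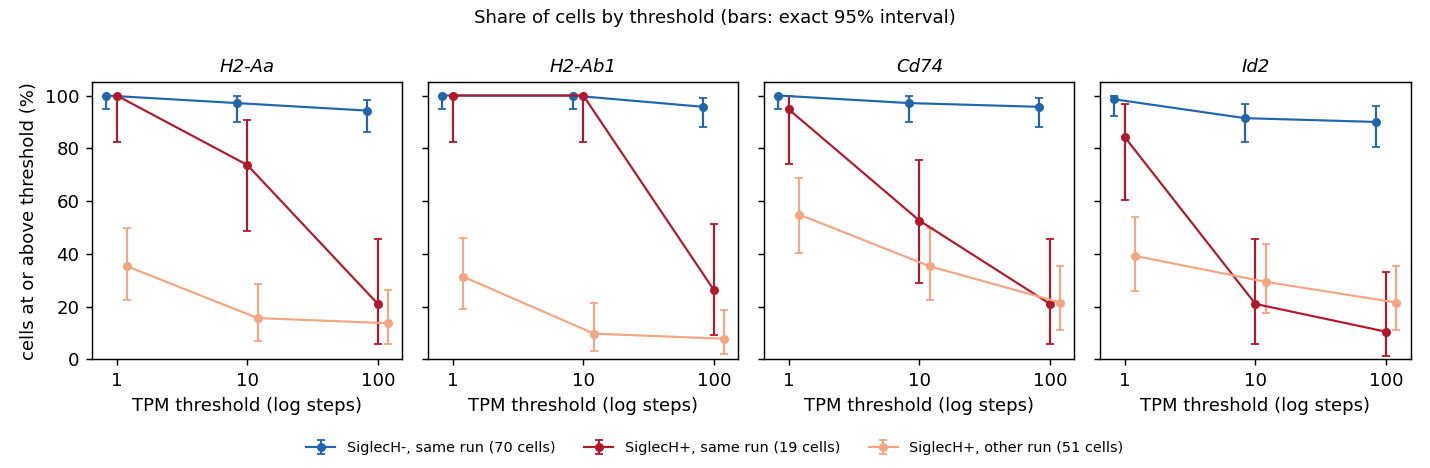
Share of cells at or above 1, 10 and 100 TPM (x axis, log steps) for H2-Aa, H2-Ab1, Cd74 and Id2 in SiglecH- cells (70, blue) and SiglecH+ cells (19, red) of the run and SiglecH+ cells of the other run (51, orange); bars are exact 95% intervals. At 1 TPM the SiglecH+ cells of the run lie near the SiglecH- cells, and at 100 TPM closer to the SiglecH+ cells of the other run.

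With a pseudocount of 1, few genes of the same gate were past the size rule between its runs. Of 9624 genes kept, 56 (0.582%) were higher by 2 or more in this run and 26 (0.27%) lower, with a median difference of -0.02. A pseudocount of 0.1 gave 3.09% and 2.33%, beside 9.89% and 2.42% between the gates within the run. H2-Ab1 (4.43) and H2-Aa (3.40) had the largest positive differences, followed by Sat1 (2.92), a polyamine-catabolising enzyme, Rgs18 (2.90), a regulator of G protein signals, and Pdhb (2.64), a subunit of pyruvate dehydrogenase. Of the 9 class II genes kept in that comparison 4 were higher by 2 or more. The largest negative differences were those of Pafah1b3 (-2.89), Ube2d3 (-2.70), a ubiquitin-conjugating enzyme, Cdk2ap2 (-2.68), Rapgef6 (-2.59) and Rasa4 (-2.59). The pDC factor list had a median of -0.19 with 0 of 7 past the size rule.

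The SiglecH+ cells of the other run were also set against the same 70 SiglecH- cells. Since both comparisons share those 70 cells, only values are given side by side. In the second one 2.9% of 9007 genes were higher and 1.1% lower by 2 or more. Of the 345 genes higher within the run, 46.7% were also higher by 2 or more there, and of the 89 lower, 74.2% were also lower by 2 or more. Tcf4 had a difference of 6.09 within the run and 7.27 across runs, Runx2 5.44 and 6.77, and Ly6d 8.02 and 9.82. Id2 had -7.47 and -8.15 and Batf3 -4.12 and -4.90. The class II values diverged more, with -6.24 and -10.67 for H2-Ab1, -6.74 and -10.13 for H2-Aa, and -6.73 and -8.74 for Cd74. Spib went the other way, at 5.12 within the run and 3.77 across runs.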

How the data were processed

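Messenger RNA was measured in single cells on microfluidic chips with transposon-based libraries, per the labels' protocols. Each deposited value is the TPM of 1 gene symbol in 1 cell, for which the submitters' processing notes name RSEM 1.2.19 and GRCm38. Aligner and annotation: not given in the sources used here. TPM keep no read counts, so depth is unknown. Gates came from the labelled cell population. The highest Pearson correlation between cells of the run was 0.65 and 0 columns were identical. Per gene, the mean over cells of log2(TPM + 1) was compared between gates without a test, after a filter of 1 TPM in 20% of the cells of either gate. Genes named are the 12 largest differences each way at 1 TPM in 50% of the cells of the higher gate (5 each way between runs), without sort markers, predicted, ribosomal protein, mitochondrial and sex-linked genes; all members of the factor and class II lists; and the 3 highest and lowest of other lists. A list member named outside this rule was chosen after its value was seen. Members and lists were chosen with earlier results of these data known. Counts of list members cover those that passed the filter. The value of 1 listed gene is not reported here. Coordinates came from GENCODE M21, promoter windows from RefSeq. The steps were tested on simulated data. Software was pandas 2.3.3 with numpy 2.4.6, scipy 1.17.1 for intervals, and matplotlib 3.10.9, under Python 3.11.15.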

Additional observations from a re-analysis of the deposited data

How the results depend on the processing

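No paired analysis was possible because replicate numbers only name single cells. The 24 named genes were chosen as the largest differences. They kept their direction and stayed past the size rule of 2 under each of 15 alternatives and when each SiglecH+ cell in turn was left out. Neither other filters on genes nor the minimum of genes per cell, which removed no cell, could change their values. All 24 differences were 5.16 or more in size, so leaving out a single SiglecH+ cell could not bring them under 2. That outcome was fixed in advance and is no evidence of stability. The share of genes kept that were higher by 2 or more was 3.7% and of those lower 0.954%. A pseudocount of 0.1 gave 9.89% and 2.42%, a pseudocount of 10 gave 0.718% and 0.364%, the log2 of the mean TPM 6.56% and 7.59%, and the median over cells 9.15% and 1.92%. Without the filter the shares were 1.63% and 0.421%, from the same 345 and 89 genes among more tested, and with a filter of 50% of cells 7.88% and 2.13%. The median of the pDC factors became 5.51 with a pseudocount of 0.1, 2.41 with the log2 of the mean and 6.06 with the median over cells. That of the pDC surface genes became 1.8 with a pseudocount of 10, 1.87 without the filter and 5.15 with the filter of 50%. The cDC factor median of -1.35 became -0.75 with a pseudocount of 10 and without the filter, and the class II median of -3.49 became -2.23 with a pseudocount of 10. That of the cDC1 genes became -3.71 with the filter of 50%, -1.45 with a pseudocount of 10 and -3.28 with the SiglecH+ cells of the other run. Between runs of the same gate, 0.582% higher and 0.27% lower became 3.09% and 2.33% with a pseudocount of 0.1, and 0.0104% and 0% (0 genes) with one of 10. Beyond these constructions the cause was not tested. Leaving out each SiglecH+ cell gave 3.69 to 4.44% higher and 0.849 to 1.19% lower, and list medians of 3.90 to 4.32 (pDC factors), 3.61 to 4.17 (pDC surface), -1.48 to -1.22 (cDC factors), -2.41 to -2.24 (cDC1) and -3.64 to -3.37 (class II). Leaving out the 4 cells whose Siglech goes against the label, an alternative chosen after seeing the data, gave 4.17% and 1.43%. Of 21 lists with a median, 7 changed sign under an alternative: G2/M, Toll-like receptor, cDC2, chemokine receptor, immediate-early, interferon-stimulated, and T and NK cell genes. Their main medians were at most 0.57 in size, and the changed medians reached -0.67 (G2/M) and -0.65 (cDC2). A subset of cells with Xist and no Y-linked transcript was not run, since 0 cells met it. Xist was above 0 TPM in 6 of 19 SiglecH+ and 22 of 70 SiglecH- cells, each of which also had a Y-linked transcript. The cause of this joint detection was not tested. The 19 cells of one gate and the unknown depth limit all values.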
